A study of Schizosaccharomyces pombe with 8 samples.

Results

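The rDNA-side ends of chromosome III are the outermost 100 kb on each side of the smallest chromosome of the fission yeast Schizosaccharomyces pombe, next to its ribosomal DNA. Joined DNA pairs were taken as members when at least 1 end lay on chromosome III at a position up to 100000 (left window) or above 2352883 (right window), and pairs whose ends both lay within 500 bp of those of another pair were counted once, as 1 event. By this rule 2474 of 101984 pairs in the interacting library and 3049 of 123434 pairs in its de-crosslinked control were members. They made up 954 of 35511 events in the interacting library and 1541 of 56018 events in its de-crosslinked control. The left window held 314 events in the interacting library and 532 in its de-crosslinked control, and the right window held 650 and 1016 in the same order of libraries. In the 10 kb on either side of the left cut-off, 34 and 69 event ends lay just inside in the interacting and de-crosslinked libraries, against 42 and 68 just outside. At the right cut-off 87 and 153 lay inside, against 62 and 102 outside.

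Both libraries came from cells of genotype pat1-114 rec12D that carried Rec27 fused to GFP. The pat1-114 allele is temperature-sensitive and lets a whole culture enter meiosis together, and rec12 encodes the enzyme that cuts DNA to start recombination, so no such cuts are made in these cells. Cells spent 18 h without nitrogen, meiosis was started at 34 °C, and 500 mL of culture was fixed in formaldehyde at 1% after 3.5 h. Chromatin sheared to about 1000 bp was pulled down through Rec27-GFP. In the interacting library the pulled-down DNA was ligated while crosslinked, and in its de-crosslinked control only after the crosslinks had been removed. Each group was 1 library, so every test below compares those 2 libraries or places within 1 library, and not conditions. The other 6 of the 8 samples, from Rec27-GFP without rec8 and from FLAG-tagged Rec25 and Rec27, were not analysed here.

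In fission yeast the ribosomal RNA genes stand as tandem repeats at both ends of chromosome III, where the nucleolus forms and RNA polymerase I transcribes them. Rec27 belongs to the linear elements, the protein axis that forms along fission yeast chromosomes in meiosis in place of a full synaptonemal complex, and it binds most densely at recombination hotspots. The authors' tables class each joined end as hot or cold. The rule behind these classes is not given in the sources used here.

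The values below refer to 3 features of the DNA, and stretches that hold them are shown first. All are from the RefSeq assembly ASM294v3, with capitals for the part that matters. The flanks of the left and right arrays are inverted copies of each other. The alignment that runs from the arrays into both flanks joins 11260 to 33054 on the left with 2431087 to 2452883 on the right over 21845 bp at 98.8% identity, and it continues over 3121 bp at 92.4% identity, from 33009 to 36109 on the left and from 2427731 to 2430817 on the right. A stretch of this second part, where the left and right ends were joined in both libraries, reads as follows, with capitals for bases that differ from, or are missing in, the other copy. It lies at chrIII:35517-35696 on the plus strand and at chrIII:2428144-2428334 on the minus strand, outside annotated genes on both sides.
left flank: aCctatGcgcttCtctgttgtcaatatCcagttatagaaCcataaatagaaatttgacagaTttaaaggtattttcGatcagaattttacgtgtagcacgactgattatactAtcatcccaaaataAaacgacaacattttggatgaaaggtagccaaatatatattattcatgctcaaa
right flank: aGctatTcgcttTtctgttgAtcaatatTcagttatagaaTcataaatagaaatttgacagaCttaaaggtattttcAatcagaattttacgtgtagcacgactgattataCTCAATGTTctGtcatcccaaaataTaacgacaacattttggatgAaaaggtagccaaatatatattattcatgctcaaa

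The ribosomal spacer, the DNA between 1 rRNA unit and the next, held 203 of the 206 event ends of the right array in the interacting library and 253 of 259 in its de-crosslinked control. Its stretch with the most ends lies at chrIII:2447694-2447898 in the right array. It is shown on the minus strand beside the left array's copy at chrIII:16244-16440 on the plus strand. Capitals again mark what differs or is missing in the other copy. Within this stretch of the assembly only these few bases tell the shown copies apart, and how ends were placed between them is not known.
right array: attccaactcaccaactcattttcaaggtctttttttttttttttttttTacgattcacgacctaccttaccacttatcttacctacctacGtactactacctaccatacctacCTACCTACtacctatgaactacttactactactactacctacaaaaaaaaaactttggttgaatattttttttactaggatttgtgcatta
left array: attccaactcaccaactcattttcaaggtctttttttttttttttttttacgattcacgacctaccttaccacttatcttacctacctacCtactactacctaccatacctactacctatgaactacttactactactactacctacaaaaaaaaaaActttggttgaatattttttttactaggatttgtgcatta

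The third stretch, at chrIII:2381979-2382087 on the plus strand, holds a run of 29 T (in capitals) in the gap between pcs60 and vms1. It is shown because, among fixed 100 bp bins of the genome, the bin that holds it had the most event ends in the interacting library. This rank depends on the bin borders. Counted with 50 bp on each side of each run of at least 20 A or T, the fullest run of the genome held 69 event ends there, against 56 at this one.
T run: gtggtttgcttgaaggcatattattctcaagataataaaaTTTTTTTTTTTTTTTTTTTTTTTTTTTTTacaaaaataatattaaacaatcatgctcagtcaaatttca

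Outside the array, the density of ends in the right window was close to that of the rest of the chromosome, and the left window was somewhat lower. Counted per kb of unique sequence (positions covered by a 50 bp word found once in the assembly), the left window held 4.76 event ends in the interacting library (95% exact Poisson interval 4.26 to 5.30), against 5.94 (5.83 to 6.04) in the rest of chromosome III. The de-crosslinked control held 7.80 there (7.15 to 8.49), against 9.11 (8.99 to 9.24) in the rest of the chromosome. The left window was thus somewhat below the rest of the chromosome in both libraries, with intervals that do not overlap. The right window held 8.27 (7.66 to 8.92) in the interacting library, against the same 5.94, and 12.6 (11.8 to 13.3) in the de-crosslinked control, against 9.11. Its excess lay in the array: without it the right window held 5.87 (5.36 to 6.43) in the interacting library and 9.59 (8.92 to 10.3) in its de-crosslinked control. The intervals cover counting error only. Only 68.5% of the left window and 81.9% of the right window is unique.

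The share of all ends that fell in the windows did not move between the libraries beyond counting error. Relative to the rest of chromosome III, the left window's share changed by -0.09 on the log2 scale, interacting over de-crosslinked (Fisher's exact test, two-sided, p = 0.377, adjusted p = 0.575 over 16 tests). The right window's share changed by 0.02 (Fisher's exact test, two-sided, p = 0.839, adjusted p = 0.895). With every pair counted, copies included, the directions turned round, to 0.17 on the left (Fisher's exact test, two-sided, unadjusted p = 0.00706) and -0.049 on the right (p = 0.336, the same test).

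**Figure D1:**
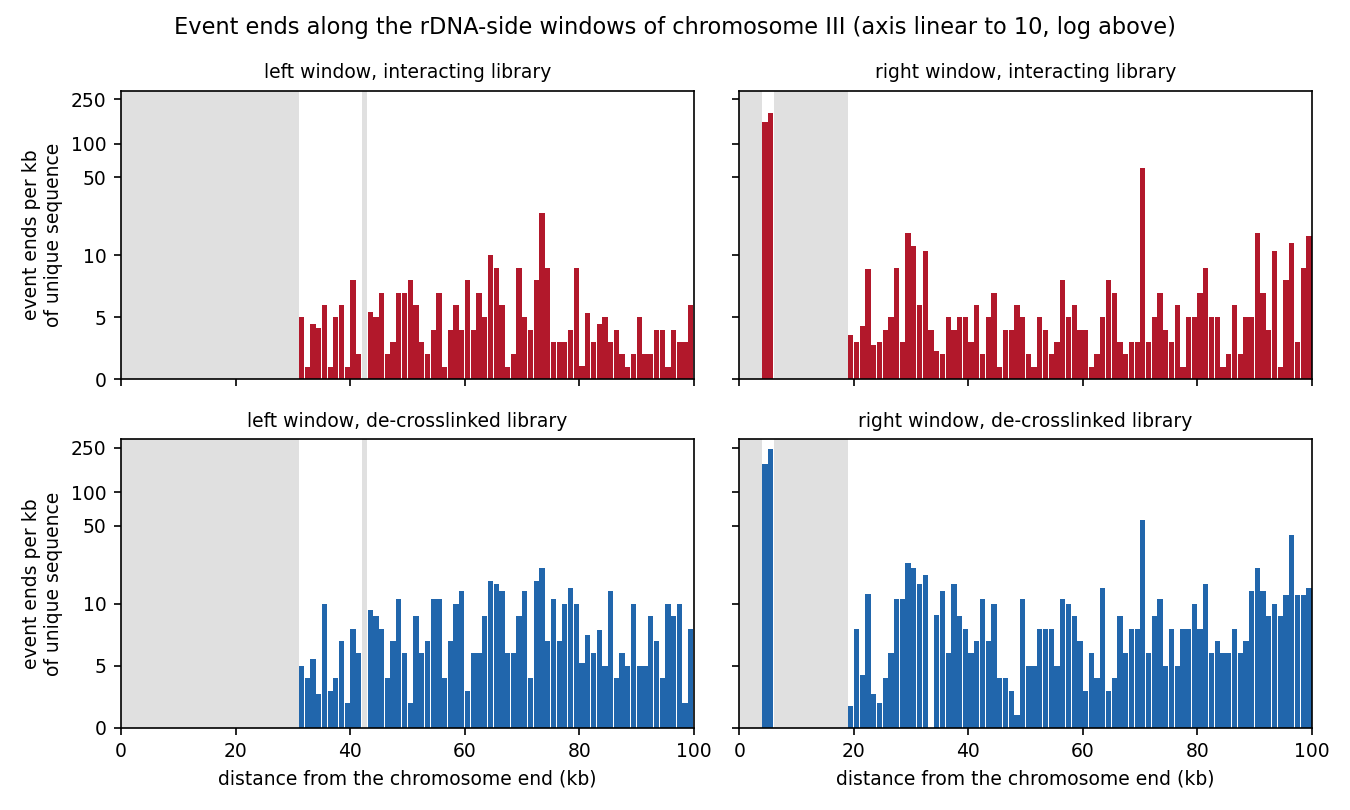
Event ends per kb of unique sequence (y axis, linear to 10 and logarithmic above) in 1 kb bins against distance from the chromosome end in kb, for the left and right windows (columns) and the interacting and de-crosslinked libraries (rows). Grey bins have under 500 bp of unique sequence and no value. The spacer bins of the right array reach 187 in the interacting library and 242 in its de-crosslinked control, and the bin at the run of T stands at 60 and 57.

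In 1 kb bins per unique kb, the ribosomal spacer of the right array was the densest place of the windows. The right array, from 2440994 to the end of the assembly, has 1684 bp of unique sequence out of 11890 bp, and held 206 event ends in the interacting library and 259 in its de-crosslinked control. That is 122 per unique kb (106 to 140) in the interacting library and 154 (136 to 174) in its de-crosslinked control. Both libraries were therefore far above the rest of the chromosome. The shown 205 bp stretch alone held 71 ends in the interacting library and 91 in its de-crosslinked control. The next stretch, 168 bp long, held 39 and 37. The assembly holds fewer repeats than a cell, whose number in these cells is not known from the tables, so these values cannot be read per copy of the spacer. The left array, from 1 to 23130, has 99 bp of unique sequence and held 0 ends in either library. Of the ends in the right array 5.83% were classed hot in the interacting library (exact binomial interval 3.05 to 9.95) and 8.88% in the de-crosslinked control (5.71 to 13.0), against 34.6% and 36.9% in the rest of chromosome III in the interacting and de-crosslinked libraries. The right array thus held many ends per unique kb of the assembly, and most of these were classed cold.

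The run of T beside vms1 was the other dense place, and it held a like number of event ends in both libraries. The control held more events in all, at 56018 against 35511, so its ends there were a smaller part of that library. The 100 bp bin that holds it had 56 event ends from 57 pair ends in the interacting library, the most of any such bin, and 57 event ends from 60 pair ends in its de-crosslinked control, where it ranked 3. Nearly every pair there was an event of its own, while member events overall had 2.59 pairs each in the interacting library and 1.98 in its de-crosslinked control. Of the 20 densest 100 bp bins of the genome, 18 in the interacting library and 11 in its de-crosslinked control held or touched a run of at least 15 A or T. The share of all 100 bp bins with such a run was not counted, so these numbers cannot be read as many or few. The right window has 4 runs of at least 20 A or T in mostly unique sequence. Their 50 bp surroundings held 56, 26, 6 and 4 event ends in the interacting library, against 57, 21, 11 and 4 in its de-crosslinked control. Across the genome 56% of 141 such runs had at least 10 event ends in the interacting library and 61% in its de-crosslinked control, so that a filled run was common. The runs were looked at after the densest bins had been seen, and their part in the joining was not tested.

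The windows alternated between hot and cold stretches. On the left, 3 stretches of hot ends covered 20632 bp: 46391 to 51328 over the nickel transporter gene nic1 and the glyoxalase gene hsp3101, 52163 to 61363 over the catalase gene ctt1 and cox14 (cytochrome c oxidase assembly), and 73506 to 79998 over aah1, which encodes a hydrolase anchored to the cell surface, and the peptide transporter gene SPCC757.13. On the right, 6 stretches covered 40144 bp. Of these 1, from 2443397 to 2447378, lies in the array, and another, from 2378007 to 2384136, holds the run of T. The longest, 15293 bp from 2349891 to 2365183, begins just outside the window and ran over put1, SPCC70.04C, ecl1, nnk1 and part of sac32. The share of event ends classed hot in the right window outside the array was 57.7% in the interacting library (53.1 to 62.3) and 57.2% in the de-crosslinked control (53.6 to 60.7). That was above the 34.6% and 36.9% of the rest of the chromosome. The left window, at 32.5% in the interacting library (27.5 to 37.9) and 32.0% in the de-crosslinked control (28.1 to 36.2), was not.

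By count alone, bins of 1 kb with many ends were a smaller share on the left and a larger one on the right than over the genome. The numbers of bins are small, and the difference from the genome was not tested. On the left 2 of 68 bins in the interacting library and 5 of 68 in its de-crosslinked control reached 2 times the median bin's ends or more, against a background of 10.2% and 11.5% of all 12102 bins. On the right 12 of 84 and 15 of 84 did. The left peak in both libraries was the first kb of aah1, from 73001 to 74000, with 24 event ends from 69 pair ends in the interacting library and 21 event ends from 37 pair ends in its de-crosslinked control. Next on the left came the bin over rrp45, a subunit of the RNA-degrading exosome, and rnc1, an RNA-binding protein, with 10 and 16 event ends. The following bin, in rnc1, had 9 and 15. On the right, after the spacer and the run of T, the highest in the interacting library were the bin in nnk1, a protein kinase gene, with 16 and 21 event ends, and the bin at the spermidine-type transporter gene SPCC569.05C with 16 and 23. A bin between ecl1, a gene known to extend chronological lifespan, and nnk1 had 13 event ends from 60 pair ends in the interacting library, against 41 event ends from 67 pair ends in the de-crosslinked control. There the pairs were alike and the events were not.

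Gene by gene, the windows were ordinary. Of the 65 protein-coding genes 63 had enough unique sequence to be measured, each with 500 bp on either side. Gene values are ends per kb of all sequence, unlike the window densities above, which are per unique kb. Their median was 0.892 times the median coding gene of the genome in the interacting library and 1.01 times in its de-crosslinked control. Of the 63, 3 in the interacting library reached 2 times the median coding gene, against a background of 5.13% of 5030 genes, and in the de-crosslinked control 4 of 63 did, against 5.03%. These shares were near the background. The gene aah1 had 44 event ends (2.47 times the median) in the interacting library and 54 (2.02 times) in its de-crosslinked control. SPCC70.04C, a gene of unknown function, had 35 ends in each, which is 2.52 times the median in the interacting library and 1.68 times in its de-crosslinked control. The lifespan gene ecl1 had 15 ends (1.69 times) in the interacting library and 34 (2.54 times) in its de-crosslinked control. SPCC569.06, also of unknown function, had 27 ends (1.85 times) and 49 (2.23 times) in the interacting and de-crosslinked libraries. The gene vms1, whose budding yeast counterpart acts on stalled ribosomes, stood highest, with 66 ends (4.15 times) in the interacting library and 75 (3.14 times) in its de-crosslinked control. Of these, 56 and 57 ends lay at the run of T, 406 bp before the gene. Without them vms1 had 0.629 times the median in the interacting library and 0.753 times in its de-crosslinked control.

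**Figure D2:**
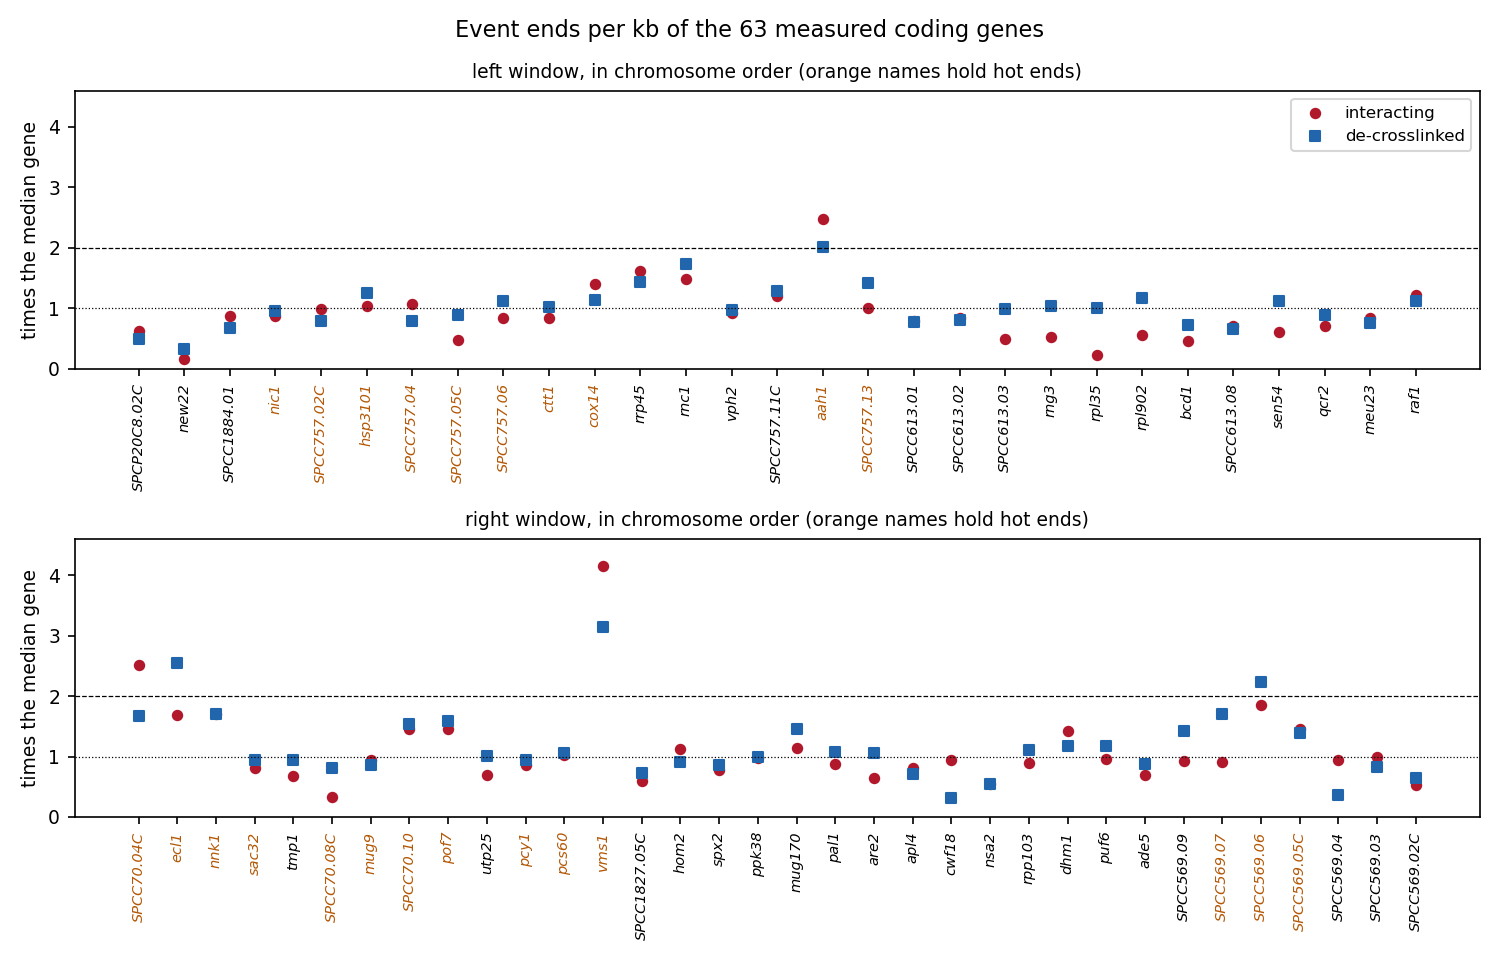
Event ends per kb of each of the 63 measured coding genes with 500 bp flanks, as a multiple of the median coding gene of the genome (y axis), in chromosome order along the left (top) and right (bottom) windows, for the interacting and de-crosslinked libraries. The dashed line marks 2 times the median. The gene vms1, at 4.15 and 3.14, is the highest and holds the run of T in its flank, and aah1, at 2.47 and 2.02, is the highest of the left window.

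By ends per kb of all sequence, the measured genes nearest the arrays held few ends, and none of the 4 stood above the median gene. With flanks, the unique fraction was 0.738 for SPCP20C8.02C, 0.748 for SPCC569.02C and 0.843 for SPCC569.03. Per unique kb these 3 would stand higher, and whether SPCC569.03 would then pass the median gene was not computed. On the left, SPCP20C8.02C had 6 event ends (0.63 times the median gene) in the interacting library and 7 (0.486 times) in its de-crosslinked control, and new22 had 1 end (0.166 times) and 3 (0.330 times). On the right, SPCC569.02C had 5 ends (0.537 times) in the interacting library and 9 (0.642 times) in its de-crosslinked control, and SPCC569.03 had 12 (0.996 times) and 15 (0.828 times). The outermost gene of each side, SPCP20C8.01C and SPCC569.01C, lies mostly in non-unique sequence and was not measured. All of these are of unknown function.

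The hot class touched 24 of the 63 genes (38.1%), against a background of 28.6% of all measured coding genes. Among them were nic1, hsp3101, ctt1, cox14 and aah1 on the left and nnk1, pcy1, which makes a precursor of phosphatidylcholine, and vms1 on the right. Membrane transporters, which carry ions, sugars or peptides across membranes, had 6 members in the windows, of which 3 held hot ends and 0 reached 2 times the median gene in either library. Their median was 0.943 times in the interacting library and 1.12 times in its de-crosslinked control, against 1.24 and 1.22 times for all 183 measured transporter genes. The wtf genes, a family of meiotic drivers, and the nitrogen starvation list had 0 members in the windows. The list of cell surface glycoproteins matched 0 genes by product name. Of 96 measured long noncoding RNA genes in the windows, 11 in the interacting library and 9 in its de-crosslinked control reached 2 times the median coding gene, against a background of 9.14% and 8.98% of 6870 such genes. The 1 tRNA gene of the windows stood at 0.954 times the median coding gene in the interacting library and 0.762 times in its de-crosslinked control.

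Joins within a window were the strongest difference between the libraries. Joins were set against a random level, the number that would fall in a class if all ends of a library at least 5 kb apart or on different chromosomes were joined at random. The left window held 9 events of its own in the interacting library, against 0.632 at random, or 14.2 times (6.52 to 27.0), and 0 in the de-crosslinked control, against 1.09 at random. The right window held 18 in the interacting library, against 2.65, or 6.80 times (4.03 to 10.7), and 3 in the de-crosslinked control, against 4.02, or 0.746 times (0.154 to 2.18). With both windows together, 27 of 941 member events in the interacting library and 3 of 1530 in its de-crosslinked control joined places of 1 window (Fisher's exact test, two-sided, p = 4.02e-09, adjusted p = 6.43e-08 over 16 tests). With windows of 50 kb the call was lost, at 4 of 432 and 1 of 626 (Fisher's exact test, two-sided, unadjusted p = 0.165), while the interacting ratio was 6.56, and with 25 kb both libraries had 0. A share of 0 of 530 left window events in the control allows up to 0.694%.

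No difference from other stretches of the genome of the same length was detected. In the interacting library the ratio of 8.23 (5.42 to 11.98) for both windows stood beside 9.16 for other 100 kb tiles of chromosome III (exact binomial test, two-sided, p = 0.704, adjusted p = 0.867) and 9.98 for those of chromosomes I and II (exact binomial test, two-sided, p = 0.377, adjusted p = 0.575). Among 120 tiles of 100 kb the left window ranked 7 and the right window 104, and the median tile stood at 9.80. In the de-crosslinked library the ratio for both windows was 0.587 (0.121 to 1.72), against 1.23 for other tiles of the chromosome (exact binomial test, two-sided, p = 0.288, adjusted p = 0.575). The right window's lower ratio went with the array, whose ends count fully in the random level. Without ends in the arrays it held 16 events against 1.29 at random, or 12.4 times (7.09 to 20.1). With every pair counted, copies included, both windows together stood at 19.1 times, above the 12.3 times of the other tiles of chromosome III. Without the array the left and right windows did not differ detectably (exact binomial test, two-sided, p = 0.832, and p = 0.0832 with the array).

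The events inside the windows joined named genes over short distances. On the left they spanned 5.20 to 25.6 kb with a median of 10.5 kb, and 4 of the 9 touched aah1, among them joins with ctt1 and with rrp45. The left event with the most pairs, 32, joined cox14 and the transporter gene SPCC757.11C, and another with 18 pairs joined SPCC757.13 and SPCC613.02, both transporter genes. On the right they spanned 10.1 to 66.6 kb with a median of 28.2 kb. There nnk1 was joined to the acetyl-CoA ligase gene pcs60 (12 pairs) and to the gap between cwf18 and nsa2 (12 pairs), and the same gap was joined to the one between SPCC569.06 and SPCC569.05C (18 pairs). Ends both classed hot made up 3 of the 9 left events and 4 of the 18 right events. No share over all events is set beside these counts, so they cannot be read as many or few. The 3 events in the control, all in the right window, had 1 pair each.

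Member events on chromosome III stood above the random level at short distances in the interacting library, whether inside a window or reaching out of it. They stood at 13.2 times (3.60 to 33.9) from 5 to 10 kb, over 4 events, 20.4 times (10.8 to 34.8) from 10 to 20 kb, where 11 of 13 lay within a window, 8.84 (5.32 to 13.8) from 20 to 50 kb, 2.60 (1.25 to 4.78) from 50 to 100 kb and 1.20 (0.599 to 2.15) from 100 to 200 kb. All events of the 3 chromosomes stood at 23.0, 15.3, 7.79, 3.15 and 1.25 over the same distances, inside the intervals of the windows. In the de-crosslinked library the members' ratio ran between 0.757 and 1.87 at every distance class from 5 kb on. Its lowest value, 0.757 (0.602 to 0.939) from 1000 to 2000 kb, has an interval below 1, where all events stood at 1.01. The left window joined the neighbouring 100 kb 12 times in the interacting library, or 5.52 times the random level (2.85 to 9.65), and 2 times in the de-crosslinked control, or 0.552 (0.0669 to 1.99). The right window did so 11 times, or 2.08 (1.04 to 3.72), in the interacting library and 9 times, or 1.08 (0.493 to 2.05), in the de-crosslinked control.

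**Figure D3:**
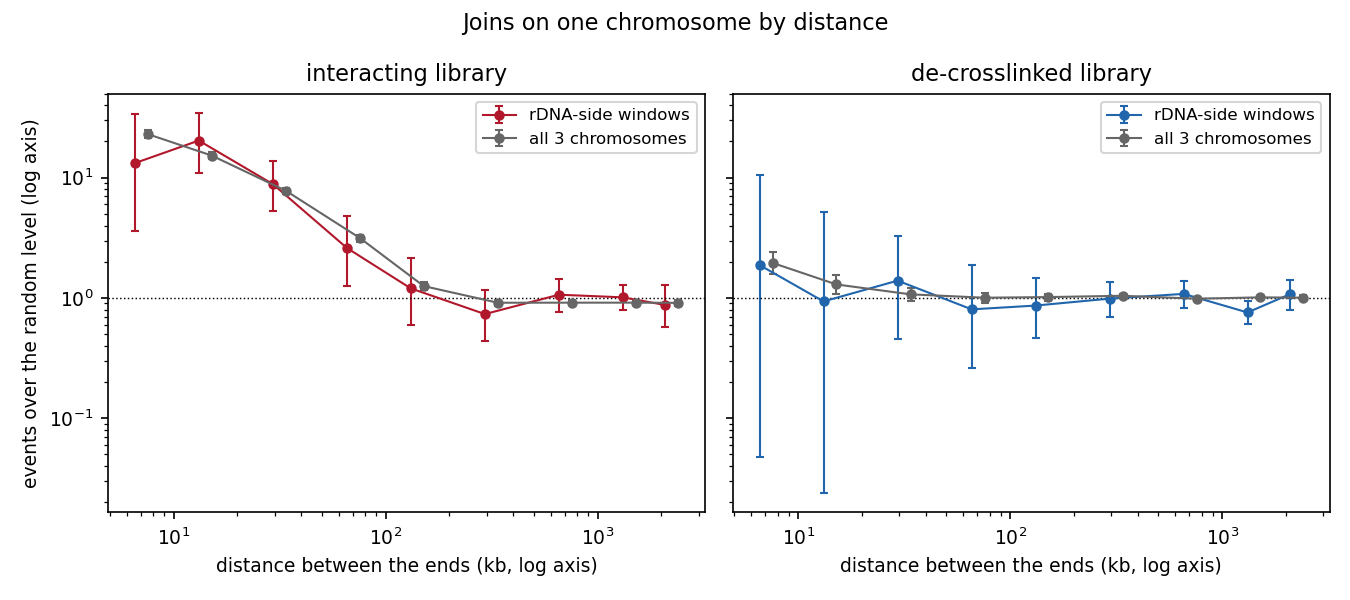
Events over the random level (y axis, logarithmic) by the distance between both ends in kb (x axis, logarithmic), in the interacting (left) and de-crosslinked (right) libraries, for the rDNA-side windows and for all 3 chromosomes, with 95% exact Poisson intervals. In the interacting library both fall to about 1 between 100 and 200 kb (1.20 for the windows and 1.25 for all), and in the de-crosslinked control the windows stay near 1.

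The left and right windows are the far ends of 1 chromosome, and joins between them were counted to ask whether the rDNA-side ends met. Left and right were joined by 10 events in the interacting library, against 3.06 at random, or 3.27 times (1.57 to 6.01). Other joins over 2 Mb or between chromosomes stood at 0.8997 times (exact binomial test, two-sided, p = 5.83e-04, adjusted p = 0.00311 over 16 tests). The de-crosslinked control had 7 against 4.88, or 1.43 times (0.577 to 2.96), and other far joins stood at 0.995 times (exact binomial test, two-sided, p = 0.354, adjusted p = 0.575). The libraries did not differ detectably: the change was 1.33 on the log2 scale, interacting over de-crosslinked (Fisher's exact test, two-sided, p = 0.0743, adjusted p = 0.297). The ends of chromosomes I and II had 14 left-to-right events in the interacting library against 4.38 at random, or 3.19 times, and 9 in the de-crosslinked control against 5.23, or 1.72 times. Among 5776 pairs of 100 kb windows that far apart, 0.173% stood at 3 times random or more in the interacting library, this pair included, and 0.0173% in its de-crosslinked control.

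Most of these left-to-right events joined the copied flanks to each other. Of the 10 in the interacting library 7, with 17 pairs, joined a place on the left to within 37.9 to 147 bp of its inverted copy on the right, between 28828 and 38357 on the left and between 2427640 and 2435217 on the right. The event farthest from the left end among them lay at a copy of 338 bp at 93.2% identity, from 38367 to 38704 on the left and from 2427363 to 2427700 on the right. At random 0.00685 events would lie within 1 kb of the copy. Of the 7 in the de-crosslinked library 3, with 6 pairs, did so, 67.0 to 130 bp from the copy, where 0.00816 would at random. The event with the most pairs, 8, joined 33478 to 2430388, in SPCC569.03, and the control had 2 pairs nearby, joining 33456 to 2430476. At the stretches of flank printed above, the interacting library joined 35577 to 2428178, and the de-crosslinked library joined 35660 to 2428111, just past the printed right stretch. The 7 and 3 such events did not differ detectably between the libraries (Fisher's exact test, two-sided, p = 0.0524). All ends of these events were classed cold. That a join lay at its own copy was noticed in these data and then counted, and how such pairs arose was not tested. A read from 1 copy placed on the other would give such a pair, so that the ratio of 3.27 holds only as far as the reads were placed on the copy they came from, which was not tested.

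Without joins of like sequence no excess was detected, though with so few events the intervals are wide. The interacting library then held 3 left-to-right events at 1.04 times the random level (0.215 to 3.04), and the de-crosslinked library 4 at 0.844 times (0.230 to 2.16). The 3 in the interacting library joined cox14 to SPCC569.06, both classed hot, and joined rnc1 and aah1 to the right array's spacer. The 4 in the de-crosslinked library joined rnc1 to SPCC70.08C and to the spacer, the gap before aah1 to vms1, and the overlapping genes SPCC613.03 and rng3 to the run of T. The pair rnc1 and spacer thus occurred in both libraries, at 65256 and 2448106 in the interacting library and at 65268 and 2447761 in its de-crosslinked control. The ends of chromosomes I and II kept 9 events in the interacting library, or 2.22 times, after the same step. This did not differ detectably from the 1.04 times of chromosome III (exact binomial test, two-sided, unadjusted p = 0.381). In all, 22 member events in the interacting library and 19 in its de-crosslinked control joined like sequence, of which 10 and 12 were between chromosomes.

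**Figure D4:**
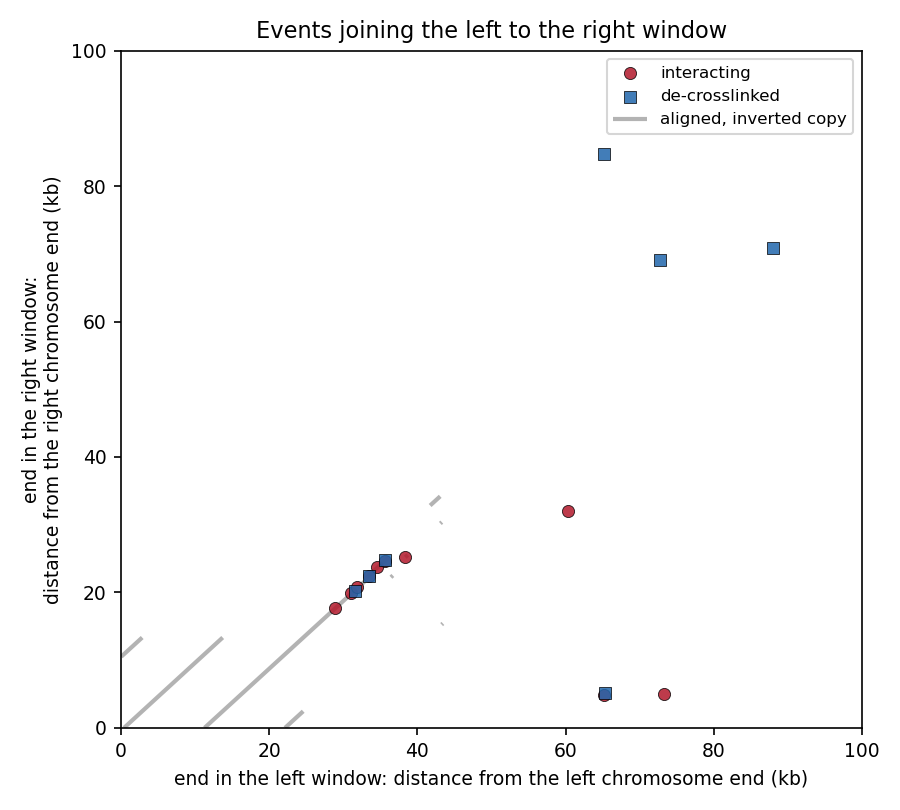
Each event that joined the left to the right window, placed by the distance of its left end from the left chromosome end (x axis, kb) and of its right end from the right chromosome end (y axis, kb), in the interacting (circles) and de-crosslinked (squares) libraries. Grey lines are the inverted copies found by alignment: 7 of 10 interacting and 3 of 7 de-crosslinked events lie within 147 bp of such a copy, 1 of them at the short copy of 338 bp hidden under its circle.

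The windows showed no excess of joins with the ends of the other chromosomes. Joins with the outer 100 kb of chromosomes I and II numbered 23 in the interacting library, against 23.1 at random, or 0.996 times (0.631 to 1.49), where joins with the remainder of those chromosomes stood at 0.916 times (exact binomial test, two-sided, p = 0.659, adjusted p = 0.867). De-crosslinked, they numbered 26, against 33.2, or 0.783 times (0.512 to 1.15), where the remainder stood at 1.02 times (exact binomial test, two-sided, p = 0.191, adjusted p = 0.509). The libraries did not differ detectably, with a log2 change of 0.65, interacting over de-crosslinked (Fisher's exact test, two-sided, p = 0.133, adjusted p = 0.425). The lowest value was the left window's with the outer windows of chromosome II in the de-crosslinked library, at 1 event against 6.49 (0.154 times, 0.00390 to 0.858), beside 6 against 4.31 (1.39 times, 0.511 to 3.03) in the interacting library. The left window alone had 9 such joins with both chromosomes (1.19 times) in the interacting library and 3 (0.263 times) in its de-crosslinked control, a log2 change of 2.59 (Fisher's exact test, two-sided, p = 0.00411, not adjusted), and the right window alone had 14 (0.901 times) and 23 (1.06 times). With copies kept, the joins of both windows stood at 1.41 times in the interacting library and 0.696 times in its de-crosslinked control, which differed from the remainder at an unadjusted p of 3.54e-05 and 0.00720 (exact binomial test, two-sided), over pairs that include copies of 1 join.

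Fewer member events were between chromosomes in the interacting library. Of member events 725 of 941 in the interacting library and 1271 of 1530 in its de-crosslinked control were between chromosomes, a difference of -6.03 percentage points (Fisher's exact test, two-sided, p = 2.81e-04, adjusted p = 0.00225). Counted per end, 74.1% of the windows' ends in the interacting library had a partner on another chromosome (71.3 to 76.9), against 72.5% in the rest of chromosome III (Fisher's exact test, two-sided, p = 0.280, adjusted p = 0.280 over 4 tests), and random joining would give 80.7%. The de-crosslinked share was 82.5% (80.5 to 84.4), against 80.2% (p = 0.0301, adjusted p = 0.0601, Fisher's exact test, two-sided), and random joining would give 81.2%. The windows and the rest of the chromosome were thus both lower in the interacting library, and there both lay below the random level. By window and chromosome, the left window's joins with chromosome II stood at 0.782 times (0.628 to 0.962) in the interacting library and 1.12 times (0.971 to 1.28) in its de-crosslinked control.

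The right array had a higher share than the rest of the chromosome in the interacting library. Of its ends 83.5% in the interacting library had a partner on another chromosome (77.7 to 88.3), against 72.5% in the rest of chromosome III (Fisher's exact test, two-sided, p = 2.72e-04, adjusted p = 0.00109). The de-crosslinked share was 84.6% (79.6 to 88.7), against 80.2% (Fisher's exact test, two-sided, p = 0.0839, adjusted p = 0.112). The random levels were 80.8% and 81.3%, inside both intervals. Its events by partner had intervals that include the random level: 85 with chromosome I (0.914 times, 0.730 to 1.13) and 87 with chromosome II (1.19 times, 0.951 to 1.46) in the interacting library, against 116 (0.994 times, 0.821 to 1.19) and 103 (1.10 times, 0.897 to 1.33) in the de-crosslinked control. With the rest of chromosome III there were 30 (0.809 times, 0.546 to 1.16) in the interacting library and 38 (0.839 times, 0.594 to 1.15) in its de-crosslinked control, and with the outer windows of chromosomes I and II 8 (1.64 times, 0.710 to 3.24) and 6 (1.075 times, 0.394 to 2.34). With every pair counted, copies included, these intervals leave the random level in the interacting library for chromosome II (1.39, 1.20 to 1.60), the rest of chromosome III (0.602, 0.432 to 0.816) and the outer windows (2.15, 1.30 to 3.36). In the control only the rest of chromosome III did so (0.683, 0.502 to 0.909). With the left window, the other rDNA-side end, the array was joined 2 times in the interacting library (2.09 times random, 0.253 to 7.54) and 1 time in the de-crosslinked control (0.799 times, 0.0202 to 4.45). With the right window outside the array it was joined 2 times (1.48 times, 0.179 to 5.34) in the interacting library and 1 time (0.564 times, 0.0143 to 3.14) in the de-crosslinked control.

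**Figure D5:**
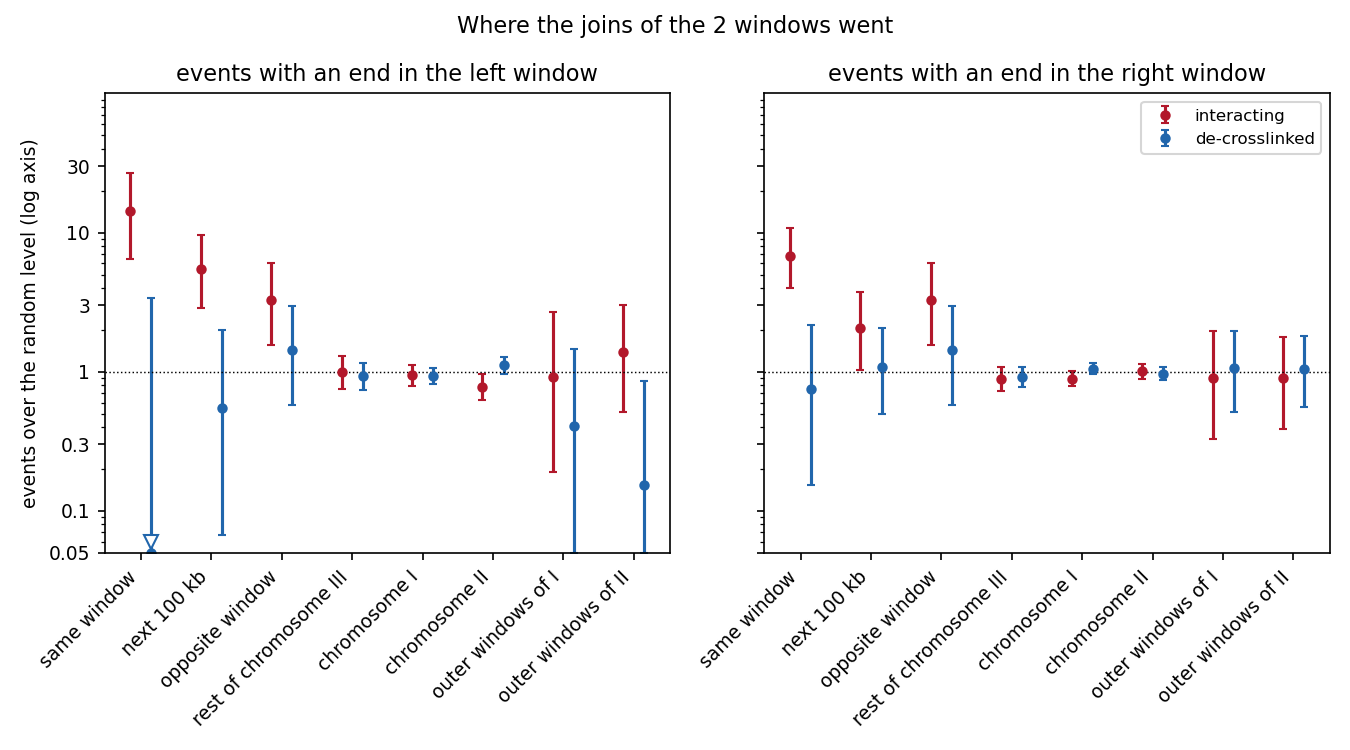
Events over the random level (y axis, logarithmic) by the place of the partner (x axis) for events with an end in the left and in the right window, in the interacting and de-crosslinked libraries, with 95% exact Poisson intervals. An open triangle at the foot stands for 0 events. The same window (14.2 and 6.80) and the next 100 kb (5.52 and 2.08) stand above 1 in the interacting library, as does the opposite window (3.27), where 7 of 10 events joined copied flanks. Array ends are included. Without them the right window's values were 12.4 for the same window and 3.02 for the next 100 kb.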

How the data were processed

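The files analysed are 2 tables of joined pairs, 1 for the interacting and 1 for the de-crosslinked Rec27-GFP library. Each row of the deposited tables gives chromosome, position and class (hot or cold) of both ends, and no read count, depth or normalized value was deposited. The submitters' processing notes name CASAVA 1.8.0, and beyond it aligner, build, filters and the hot rule are not given in the sources used here. DNA was amplified by Sequenase and made into Nextera libraries of about 300 bp fragments, per the labels' protocols, so copies of 1 join can occur as several pairs.

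Here rows were counted as pairs and, linked when both ends lay within 500 bp, as events at the median position. Positions were checked against ASM294v3. Of ends inside its sequence, 0 fell outside unique 50 bp words. Moved by -100 and 100 bp, 1239 and 1251 did so for the interacting library, and 1221 and 1215 for its de-crosslinked control. Unmoved, 72 interacting and 35 de-crosslinked positions lay past the end of the sequence, so the match to this assembly was not complete. The random level was the number of events times the share of eligible end pairs in a class. Intervals are exact (Poisson for counts, Clopper-Pearson for shares, 95%) and cover counting error only, since amplified reads without molecular identifiers are not independent molecules. Tests were exact binomial and Fisher's exact, with Benjamini-Hochberg adjustment over 16 tests (4 for the shares of ends). Like sequence was found with BLAST 2.17.0 (at least 70% identity over 150 bp, ends within 1 kb). Python 3.11.15, numpy 2.4.6, pandas 2.3.3, scipy 1.17.1 and matplotlib 3.10.9 were used, and the random level was tested on simulated data.

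Named genes were those at or beside the 5 fullest 1 kb bins of each side and library, the 3 coding genes nearest the arrays, list members, and genes at left-to-right events. Other genes, such as those at joins within a window, and the runs of T were picked after their values were seen. Members, lists and tests were chosen with earlier results of these data known. Joins near centromeres were not run, since the annotation used marks none. Alternatives were the linking distance, window size, minimum distance, hotspots, class, side and flanks.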

Additional observations from a re-analysis of the deposited data

How the results depend on the processing

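No paired analysis was possible because each group holds 1 library. Of 199 recomputed values, 137 kept their direction and their side of the threshold, and those that did not are given here; the cause was not tested unless stated. With every pair counted, the share of ends changed by 0.17 (left, unadjusted p = 0.00706, Fisher's exact test) and -0.049 (right) on the log2 scale. Joins within a window then stood at 19.1 times random in the interacting library, against 0.337 for the de-crosslinked one, with unadjusted p of 1.48e-06 and 2.52e-05 against other tiles of chromosome III (exact binomial test, two-sided). The left-to-right change between libraries was 1.51, and joins with the ends of chromosomes I and II stood at 1.41 and 0.696 with a change of 1.40. Linking within 200 bp put left-to-right joins of the de-crosslinked library at 1.98 times and the change for the ends of I and II at 0.86. Linking within 1000 bp put the interacting left-to-right ratio at 2.97, just below that of I and II.

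With windows of 50 kb, the left share changed by 0.17, the difference in joins within a window was 0.766 percentage points and no longer passed the threshold (unadjusted p = 0.165, Fisher's exact test), with an interacting ratio of 6.56, left-to-right joins of the de-crosslinked library stood at 5.63 times with a change of 2.04 between libraries, and interacting joins with the ends of I and II stood at 0.908. With 25 kb, where the left window has few unique bases, the right share changed by 0.29, the difference between chromosomes was -3.15 points, and joins within a window and left-to-right joins were 0. The interacting left-to-right comparison gave no value there. Without hotspot bins the interacting left-to-right ratio was 3.50, and with cold ends only the de-crosslinked one was 2.81. The left window alone stood at 14.2 times for joins within it, and at 0.263 for the ends of I and II in the de-crosslinked library with a change of 2.59. The right window alone stood at 0.901 and 1.06 for those ends.

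The following were added after seeing the data. Without joins of like sequence, left-to-right joins stood at 1.04 times in the interacting library, against 0.844 for the de-crosslinked one, and the right share changed by -0.0049. Without ends in the arrays the right share changed by -0.093, joins within a window stood at 13.0 times and interacting joins with the ends of I and II at 0.826. Without ends at runs of A or T the right share changed by -0.029, joins within a window stood at 9.78 and interacting left-to-right joins at 3.34. Without like sequence and arrays together, the right share changed by -0.12, joins within a window stood at 13.6, left-to-right joins at 0.515 in the interacting library, against 0.854 for the de-crosslinked one, with a change of -0.76, and interacting joins with the ends of I and II at 0.776.

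Against the rest of the chromosome, the left density was 0.575 in the interacting library, against 0.614 for the de-crosslinked one, per kb of all sequence, and 0.933 in the interacting library by pairs. The right was 1.19 and 1.18 per kb of all sequence, 1.15 and 1.19 by pairs, and 0.989 and 1.05 without the array. Without flanks, 1 right gene in each library reached 2 times the median. Depth limits most classes: with 3 to 10 events a ratio is known only within several times, and 1 library per group leaves no spread between cultures to measure.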

Other observations

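A few member events held far more pairs than the rest. In the interacting library the right window's largest, with 43 pairs, joined nnk1 to kap111 on chromosome I, which encodes a nuclear import receptor. The left window's largest, with 32 pairs each, joined rrp45 to the hexokinase gene hxk1 on chromosome I and cox14 to SPCC757.11C. A left event with 25 pairs joined rnc1 to tvp15 on chromosome I. In the de-crosslinked library the left window's largest, with 33 pairs, joined ctt1 to osr2 on the other side of chromosome III. Its right window's largest, with 21 pairs, joined the cell morphology gene pal1 to pyr1 on chromosome II. These are single events with no repeat in the other library's list of 5 per side.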
